A study of Homo sapiens with 27 samples.

Results

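The 9 genes described here are E2F1 and 8 genes that cells use to make and copy DNA in S phase: TYMS, DUT, TK1, RRM1 and RRM2 of deoxynucleotide synthesis, PCNA and FEN1 of the replication fork, and UHRF1 of DNA methylation maintenance. They were taken by name from a deposited table of 14008 genes, where all 9 are listed, and all 9 passed the filter on low counts. The cells are teloHAEC, a line of human aortic endothelial cells immortalised with telomerase. Each sample was 150000 cells electroporated with Cas9 protein and guide RNA and collected 2 days later, so each library is a pool of edited and unedited cells and not a clone. Messenger RNA was measured by QuantSeq, which reads a tag near the 3' end of each transcript.

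Set A held 4 libraries treated with guides flanking a candidate SMAD3 enhancer, 4 treated with a guide against HPRT (the gene HPRT1), which also cleaves the genome, and 4 given a non-targeting guide as the negative control. Set B held 4 libraries treated with guides flanking a candidate enhancer of C2orf43 (LDAH), 4 HPRT-targeted libraries and 7 negative control libraries. All groups received Cas9 and electroporation, and the share of edited alleles was not measured in the table analysed here. The column titles name a series, A or B, for the control libraries but not for the deletion libraries. The placing of each deletion in its set therefore cannot be checked from the titles, and every comparison of a deletion with controls rests on it. The groups are called SMAD3 deletion, LDAH deletion, HPRT-targeted and negative control. Whether the replicates came from separate cultures before electroporation is not stated, so a p-value here reflects variation among these libraries, which may be technical.

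In resting and early G1 cells, RB family proteins hold E2F factors on S-phase promoters and keep them silent. Phosphorylation of RB by cyclin-dependent kinases frees E2F1 and its relatives, which then switch on genes for deoxynucleotide supply, replication and their own promoters. The product of TYMS makes thymidylate, that of DUT removes dUTP and so supplies the substrate of TYMS, and that of TK1 recovers thymidine by salvage. RRM1 and RRM2 encode the subunits of ribonucleotide reductase, the enzyme that makes deoxynucleotides from ribonucleotides. In bulk samples, fewer cells in S phase and less of each messenger RNA per cell cannot be told apart.

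Promoters of S-phase genes are known for E2F sites, so the letters around the start sites are shown here. RefSeq promoter windows (GRCh38.p14, from 250 bases before to 50 bases after a start site) were searched on both strands for the 8-letter E2F forms TTTGGCGC, TTTCCCGC, TTTGCCGC and TTTCGCGC. They were also searched for the 7-letter cores TTCCCGC and TTGGCGC, which overlap 2 of the 8-letter forms. An 8-letter form was in 6 of the 17 windows of these genes, in 5 of 9 genes (E2F1, TYMS, DUT, PCNA and UHRF1), against 3.31% of all 35116 windows and 3.99% of 27305 genes. A 7-letter core was in 8 of the 17 windows, against 9.23% of all windows, and in 8 of 9 genes, all but FEN1, against 11% of all genes. The match nearest a start site of each of the 8 genes is printed as 30 bases on the gene's strand, 5′ to 3′, with the E2F letters or their reverse complement in capitals.
E2F1, chr20:33686394-33686423, minus strand: ctttcGCGGCAAAaaggaTTTGGCGCgtaa
TYMS, chr18:657603-657632, plus strand: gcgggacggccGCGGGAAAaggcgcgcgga
DUT, chr15:48332151-48332180, plus strand: gctgGCGGGAAAtttcggtTTTGGCGCgct
PCNA, chr20:5126663-5126692, minus strand: cagcgtcagggGCGGGAAAaggcgtgcgtt
UHRF1, chr19:4909471-4909500, plus strand: caaatgccgagttttcGCGGGAAAaaaatc
TK1, chr17:78187053-78187082, minus strand: tggtttaaagcggtcggcGCGGGAAccagg
RRM1, chr11:4094450-4094479, plus strand: gcaagaaaaacgTTCCCGCcggttaggttt
RRM2, chr2:10122364-10122393, plus strand: cggggcccgcgcGCGCCAAggccgccgaga

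E2F1 and DUT each carry a pair of 8-letter matches within these 30 bases, the pair of E2F1 between 33 and 13 bases before its start site and that of DUT between 42 and 20 bases before its own. The matches of TYMS, PCNA, UHRF1 and TK1 begin 39, 59, 14 and 12 bases before the start, while those of RRM1 and RRM2, which are 7-letter cores only, lie at 223 and 192 bases. Shares closer to those of all genes were found for other promoter letters: CCAAT was in 6 of 9 genes against 39.7% of all genes, the GC box GGGCGG in 7 of 9 against 48.3%, and the CHR element TTTGAA of late cell cycle genes in 2 of 9 against 18.2%. A match describes the letters of a window and shows no binding.

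The libraries held 4.76 to 7.75 M counts (M is 1000000) in set A and 3.43 to 6.41 M in set B. In 7 of the 27, expression across all genes stood apart from the set: SMAD3 deletion replicate 4, HPRT-targeted replicate 3 of set A, LDAH deletion replicate 4, HPRT-targeted replicates 2 and 4 of set B and negative control replicates 6 and 7 of set B. Ribosomal protein genes took 15.2% to 16.3% of the counts of the 2 such libraries in set A and 14.7% to 17.1% in the 5 of set B, against 11.6% to 14.4% and 9.20% to 11.2% in the others. All 20 endothelial markers listed were in the table, with sums of 1890 to 3553 counts per 1000000 (CPM) over the libraries, PECAM1 and CDH5 at group means of 154 CPM or more but VWF at 1.79 to 5.42 CPM and at 0 in some libraries. Of 12 mesenchymal and smooth muscle markers 3 were in the table, with sums of 21.6 to 67.95 CPM, of 8 blood markers 1, at up to 3.85 CPM, and of 7 epithelial markers 0. In set A, SMAD3 was at 75.0 to 110.1 CPM in SMAD3 deletion libraries and 121 to 143 CPM in negative control libraries. HPRT-targeted libraries of set A, at 105.2 to 158.8 CPM, overlapped with the SMAD3 deletion. Negative control libraries of set B had SMAD3 at 68.5 to 143 CPM. In set B, LDAH was at 2.67 to 10.6 CPM in LDAH deletion libraries and 7.71 to 18.03 CPM in negative control libraries. HPRT1 overlapped between HPRT-targeted and negative control libraries in both sets.

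**Figure D1:**
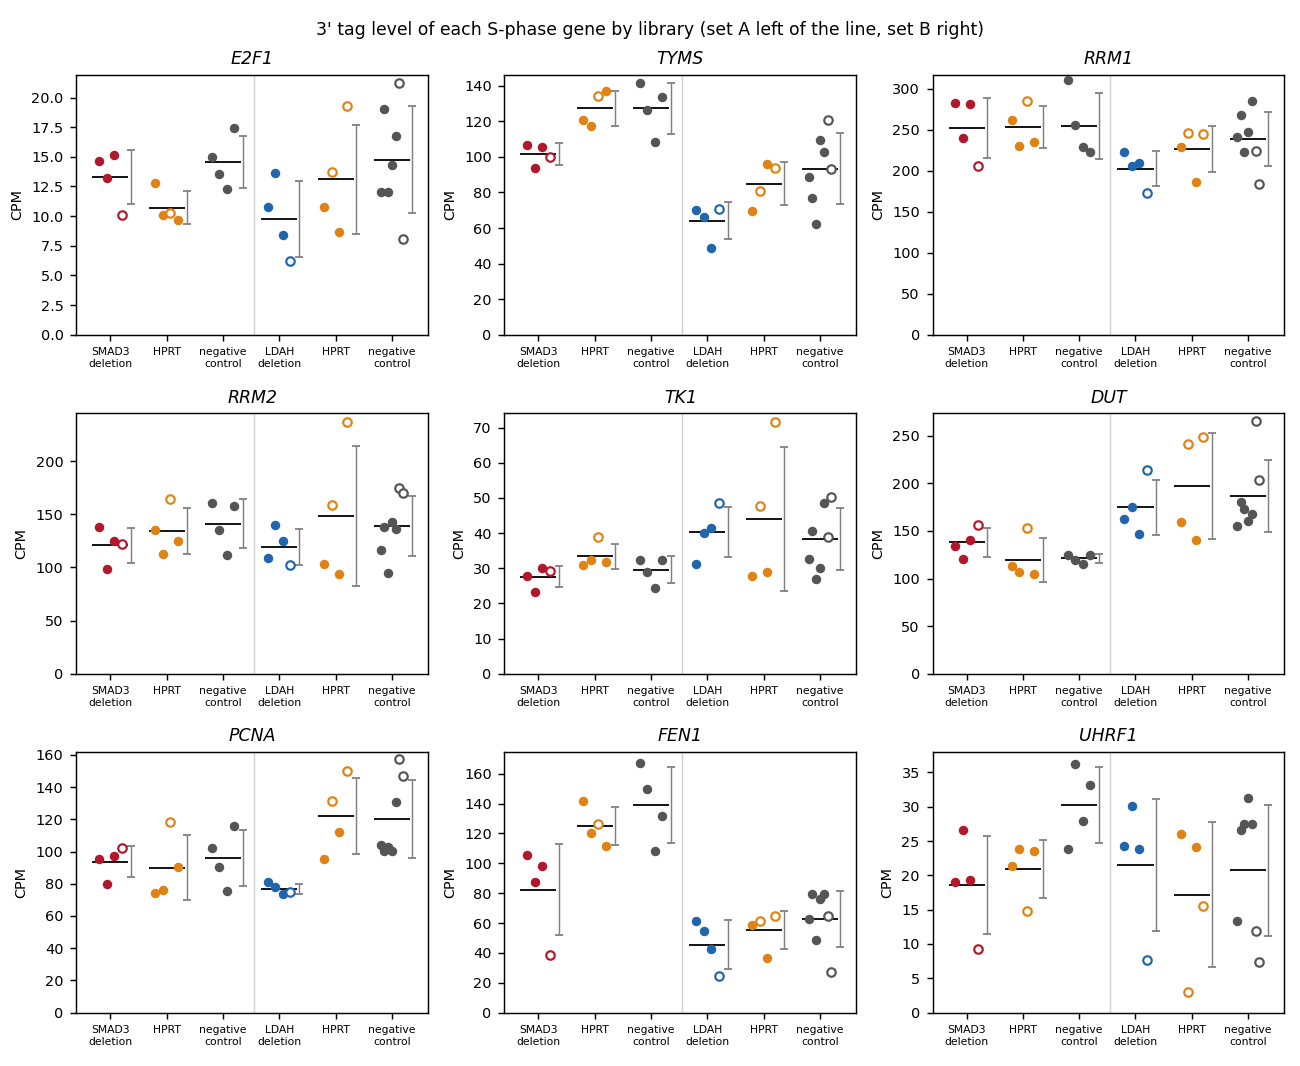
Level of each of the 9 genes in each library, in CPM scaled by TMM factors, with set A left of the grey line and set B right of it. Black lines are group means, grey bars are ± 1 SD, and open circles are the 7 libraries that stand apart. TYMS and FEN1 lie below every negative control library in all 4 SMAD3 deletion libraries, as does PCNA in all 4 LDAH deletion libraries.

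None of the 9 genes passed the adjusted threshold of 0.05 in any of the 10 comparisons made. In the SMAD3 deletion 8 of 9 had a log2 fold change below 0, as had 49.7% of all genes, with a median log2 fold change of -0.12 against 0.00 over all genes. That count fell to 6 without negative control replicate 1 of set A. TYMS, FEN1 and UHRF1 had an unadjusted edgeR p under 0.05 and were lower, a level that 2.74% of all genes reached in that direction. TYMS and FEN1 did not overlap with the control, as did 2.85% of all genes in that direction, and 0% of genes passed the adjusted threshold (0 of 11467; 778 had an unadjusted p under 0.05, and DESeq2 called 14).

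In the LDAH deletion 7 of 9 were below 0, against 48.3% of all genes, with a median of -0.24 against 0.01. TYMS and PCNA had an unadjusted p under 0.05, as did 3.33% of all genes with lower values, and PCNA did not overlap with the control, as did 0.697% of all genes. TYMS was thus named by this measure in both deletions, FEN1 and UHRF1 in the SMAD3 deletion and PCNA in the LDAH deletion, and for none of the 9 did the effects of the deletions differ from each other at an adjusted edgeR p under 0.05, with 0% of all genes called. Again 0% of genes passed the adjusted threshold in edgeR (0 of 11769; 543 had an unadjusted p under 0.05, and DESeq2 called 14). With the 5 libraries of set B that stand apart left out (n = 3 and 5), 212 of all genes passed, 1.74%, and 0 of the 9 were among them.

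Targeting of HPRT gave 8 of 9 genes below 0 in set A and 5 of 9 in set B, against 51% and 53.1% of all genes, with medians of -0.08 and -0.07. E2F1 in set A was the only member with an unadjusted p under 0.05 in either set, against 1.12% of genes lower at that level in set A and 0.816% in set B. UHRF1 alone did not overlap, in set A, where 1.96% of genes lay wholly below the control, against 0.178% in set B. The count in set B was 4 without HPRT-targeted replicate 3 and 9 without HPRT-targeted replicate 4, and that in set A was 5 without HPRT-targeted replicate 2. Without the libraries that stand apart, which leaves 2 HPRT-targeted and 5 control libraries in set B, all 9 were below 0 there, against 51.3% of all genes. Over both sets 6 of 9 were below 0 with all libraries, against 53.2% of all genes, 0 of 9 had an unadjusted p under 0.05 and were lower, against 1.39%, and 9 of 9 were below 0 without those that stand apart, against 51.8%. In each of these comparisons edgeR passed 0% of genes, with 257, 206 and 378 genes at an unadjusted p under 0.05 in set A, set B and both sets, and DESeq2 called 1, 0 and 1.

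E2F1 (ENSG00000101412; chromosome 20, 33675683 to 33686404, minus strand, GRCh38) had 21 to 113 counts per library, among the lowest of the 9. In set A it stood at 14.7, 13.3, 15.1 and 10.1 CPM in SMAD3 deletion libraries, at 12.8, 10.1, 10.3 and 9.69 CPM in HPRT-targeted libraries, and at 14.97, 13.6, 12.3 and 17.5 CPM in negative control libraries. In set B it stood at 10.8, 13.6, 8.44 and 6.23 CPM in LDAH deletion libraries, at 10.8, 13.7, 8.64 and 19.3 CPM in HPRT-targeted libraries, and between 8.06 and 21.2 CPM, with a median of 14.3 CPM, in negative control libraries. All 4 groups given a cleaving guide overlapped with their controls, and the lowest group means were those of HPRT-targeted libraries in set A and LDAH deletion libraries in set B.

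The log2 fold change of E2F1 in HPRT-targeted against negative control libraries of set A was -0.44 ± 0.18 (SE, n = 4 and 4), with an edgeR p of 0.0259 and an adjusted p of 0.988 over all genes. In HPRT-targeted libraries of set B it was -0.17 ± 0.31 (n = 4 and 7), and -0.42 without HPRT-targeted replicate 4, the library at 19.3 CPM. The difference between the HPRT effects in set A and set B was -0.26 ± 0.38, with an edgeR p of 0.488 and an adjusted p of 1.00, and 0 of the 9 genes had an unadjusted p under 0.05 in that test, against 1.32% of all genes. Over both sets E2F1 had -0.29 ± 0.19, or -0.44 without that same library, and -0.51 ± 0.17 without the 7 libraries that stand apart, with an edgeR adjusted p of 0.549. The SMAD3 deletion gave -0.12 ± 0.17 and the LDAH deletion -0.60 ± 0.32, both short of the threshold, with adjusted edgeR p-values of 0.888 and 1.00. Each set's comparisons use the same negative control libraries, so these values are not independent of each other.

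TYMS (ENSG00000176890; chromosome 18, 657604 to 673578, plus strand) encodes thymidylate synthase. In set A it stood at 107, 94.0, 106 and 100.03 CPM in SMAD3 deletion libraries, at 121, 117, 134 and 137 CPM in HPRT-targeted libraries and at 141, 126, 108 and 134 CPM in negative control libraries. All 4 SMAD3 deletion libraries lay below all 8 others of the set, although the gap to the lowest control was small. The log2 fold change of SMAD3 deletion against negative control was -0.31 ± 0.11 (n = 4 and 4), with an edgeR p of 0.0142 and an adjusted p of 0.702, and that against HPRT-targeted libraries was -0.31 ± 0.11, with an adjusted p of 0.746. HPRT-targeted against negative control libraries of set A gave -0.01 ± 0.11, with an interval from -0.25 to 0.24.

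In set B, TYMS stood at 70.4, 66.0, 48.8 and 70.9 CPM in LDAH deletion libraries, at 69.7, 80.5, 96.1 and 93.8 CPM in HPRT-targeted libraries, and between 62.4 and 121 CPM, with a median of 92.9 CPM, in negative control libraries. The LDAH deletion libraries overlapped with both other groups at the low end. Their log2 fold change was -0.55 ± 0.19 against negative control (n = 4 and 7), with an edgeR p of 0.0118 and an adjusted p of 0.934, and -0.42 ± 0.22 against HPRT-targeted libraries. HPRT-targeted against negative control libraries of set B gave -0.13 ± 0.19. The 3' end of TYMS is overlapped on the other strand by ENOSF1, and whether the counting used strand is not given in the sources used here, so a share of its counts could belong to ENOSF1.

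DUT (ENSG00000128951; chromosome 15, 48331011 to 48343373, plus strand) encodes dUTPase. In set A it stood at 134, 120.3, 141 and 157 CPM in SMAD3 deletion libraries, at 113, 107, 153 and 104 CPM in HPRT-targeted libraries and at 125, 119.8, 116 and 124 CPM in negative control libraries. In set B it averaged 175 ± 28.7 CPM in LDAH deletion (SD, n = 4), 198 ± 55.7 CPM in HPRT-targeted (n = 4) and 187 ± 38.0 CPM in negative control libraries (n = 7). The highest DUT level of every group that held a library standing apart was in such a library. Its log2 fold change was 0.20 ± 0.13 in the SMAD3 deletion and -0.10 ± 0.20 in the LDAH deletion, with adjusted edgeR p-values of 0.783 and 1.00. Names in the annotation list 8 DUT pseudogenes, 3 each for RRM2 and PCNA, 2 for TYMS and 1 for FEN1, none of them in the table. For these genes, reads that fit a copy equally well could be missing or added.

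TK1 (ENSG00000167900; chromosome 17, 78174075 to 78187233, minus strand) encodes the S-phase thymidine kinase of the cytosol. It averaged 27.6 ± 3.02 CPM in SMAD3 deletion, 33.5 ± 3.56 CPM in HPRT-targeted and 29.5 ± 3.86 CPM in negative control libraries of set A (SD, n = 4 each). In set B it averaged 40.3 ± 7.21 CPM in LDAH deletion, 44.0 ± 20.5 CPM in HPRT-targeted and 38.3 ± 8.92 CPM in negative control libraries. The wide spread of HPRT-targeted libraries in set B came from levels of 27.8, 47.8, 28.9 and 71.6 CPM, the high pair being replicates 2 and 4, which stand apart. Every SMAD3 deletion library, at up to 30.1 CPM, lay below every HPRT-targeted library, at 31.03 CPM or more, a log2 fold change of -0.26 ± 0.14 with an edgeR adjusted p of 0.861. HPRT-targeted against negative control libraries had a log2 fold change of 0.18 ± 0.14 in set A. That of set B was 0.21 ± 0.26 and turned to -0.33 ± 0.24 without the libraries that stand apart, and to -0.13 without HPRT-targeted replicate 4 alone.

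RRM1 (ENSG00000167325; chromosome 11, 4094707 to 4138876, plus strand), the large subunit of ribonucleotide reductase, was the most counted of the 9, with 581 to 2079 counts per library. Its group means were nearly equal in set A: 252 ± 36.7 CPM in SMAD3 deletion, 253 ± 25.7 CPM in HPRT-targeted and 254 ± 40.03 CPM in negative control libraries, with log2 fold changes of -0.00 ± 0.14 and -0.01 ± 0.14 against the control. In set B it stood at 222, 206, 209.8 and 172 CPM in LDAH deletion libraries, at 229, 246, 187 and 245 CPM in HPRT-targeted libraries, and between 184 and 285 CPM, with a median of 241 CPM, in negative control libraries. The LDAH deletion had -0.24 ± 0.15, with an interval from -0.56 to 0.07. Without the libraries that stand apart it was -0.26 ± 0.12, and the edgeR adjusted p was 0.32. The 3 deletion libraries left lay below the 5 controls left, as was so for 5.42% of all genes. The gap was small, with the highest of these deletion libraries at 222.4 CPM and the lowest of these controls at 222.8 CPM.

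RRM2 (ENSG00000171848; chromosome 2, 10120698 to 10131419, plus strand) encodes the small subunit, whose amount limits ribonucleotide reductase in S phase. In set A it averaged 121 ± 16.5 CPM in SMAD3 deletion, 134 ± 21.9 CPM in HPRT-targeted and 141 ± 22.8 CPM in negative control libraries (SD, n = 4 each). In set B it stood at 108, 140.0, 124 and 103 CPM in LDAH deletion libraries, at 103, 159, 94.2 and 237 CPM in HPRT-targeted libraries, and between 95.2 and 175 CPM, with a median of 138 CPM, in negative control libraries. All groups overlapped with their controls. The log2 fold changes were -0.21 ± 0.16 in the SMAD3 deletion, -0.23 ± 0.24 in the LDAH deletion, -0.08 ± 0.16 in HPRT-targeted libraries of set A and 0.10 ± 0.24 in those of set B. The last became -0.23 without HPRT-targeted replicate 4 and -0.35 ± 0.17 without the libraries that stand apart. The annotated gene AC007240.1 overlaps the 3' end of RRM2 on the same strand and is not a row of the table, so how reads there were assigned is uncertain.

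PCNA (ENSG00000132646; chromosome 20, 5114953 to 5126626, minus strand) encodes the sliding clamp that holds polymerases on DNA. In set B it stood at 81.0, 77.7, 73.5 and 74.7 CPM in LDAH deletion libraries, at 95.3, 132, 112 and 149.98 CPM in HPRT-targeted libraries, and between 100.2 and 157 CPM, with a median of 104 CPM, in negative control libraries. Every LDAH deletion library lay below all 11 others of the set, replicate 4 included. The deletion libraries were also the tightest group of this gene, at 76.7 ± 3.37 CPM (SD, n = 4), against 122 ± 23.7 CPM in HPRT-targeted and 120.4 ± 24.4 CPM in negative control libraries.

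The log2 fold change of PCNA in LDAH deletion against negative control was -0.66 ± 0.18, with an interval from -1.04 to -0.27, an edgeR p of 0.00226 and an adjusted p of 0.699. Leaving out any single library of the pair of groups kept it between -0.70 and -0.58, and without the libraries that stand apart it was -0.49 ± 0.14 with an adjusted p of 0.0711. Against HPRT-targeted libraries it was -0.68 ± 0.20, with an adjusted edgeR p of 0.948. In set A the levels were 95.4, 80.04, 97.2 and 102 CPM in SMAD3 deletion, 74.6, 76.3, 119 and 90.6 CPM in HPRT-targeted and 102, 90.2, 75.6 and 116 CPM in negative control libraries, all overlapping, and the SMAD3 deletion had -0.02 ± 0.17. The effect of the SMAD3 deletion minus that of the LDAH deletion was 0.62 ± 0.24 for PCNA, with an edgeR p of 0.0185 and an adjusted p of 1.00, so the difference between the deletions did not pass over all genes. It was the only member with an unadjusted p under 0.05 in that test, a level that 3.64% of all genes reached in either direction.

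FEN1 (ENSG00000168496; chromosome 11, 61792637 to 61797244, plus strand) encodes the flap endonuclease that trims Okazaki fragments. In set A it stood at 105, 87.4, 98.5 and 38.3 CPM in SMAD3 deletion libraries, at 142, 120.2, 126 and 111 CPM in HPRT-targeted libraries and at 167, 149.6, 108 and 132 CPM in negative control libraries. The SMAD3 deletion libraries lay below all 8 others of the set, and replicate 4, which stands apart, was far below its own group. The log2 fold change against negative control was -0.74 ± 0.24, with an edgeR p of 0.00814 and an adjusted p of 0.702, and against HPRT-targeted libraries it was -0.58 ± 0.24 with an adjusted p of 0.802. Without replicate 4 these were -0.50 and -0.34. Without the libraries that stand apart the first was -0.51 ± 0.13, with an edgeR p of 0.000715 and an adjusted p of 0.148, a smaller change with a smaller error.

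In set B, FEN1 stood at 61.1, 54.5, 42.5 and 24.3 CPM in LDAH deletion libraries, at 58.9, 61.7, 36.5 and 64.4 CPM in HPRT-targeted libraries, and between 27.4 and 79.5 CPM, with a median of 64.9 CPM, in negative control libraries. The groups overlapped. The LDAH deletion had -0.46 ± 0.29, or -0.26 without its replicate 4, and HPRT-targeted libraries had -0.18 ± 0.29 in set B and -0.16 ± 0.24 in set A. FADS2, a row of the table, covers the 3' end of FEN1 on the same strand in the annotation, so the division of reads between these genes is uncertain.

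UHRF1 (ENSG00000276043; chromosome 19, 4903080 to 4962154, plus strand) encodes the protein that brings the maintenance methyltransferase DNMT1 to newly copied DNA. In set A it stood at 19.1, 26.6, 19.3 and 9.33 CPM in SMAD3 deletion libraries, at 21.4, 23.8, 14.8 and 23.6 CPM in HPRT-targeted libraries and at 23.8, 36.3, 27.9 and 33.2 CPM in negative control libraries. The HPRT-targeted libraries lay below the controls by a margin smaller than the rounding of these levels, and 1 of the SMAD3 deletion libraries overlapped with them. The log2 fold changes were -0.68 ± 0.25 in the SMAD3 deletion and -0.54 ± 0.25 in HPRT-targeted libraries, with edgeR p-values of 0.0175 and 0.0513 and adjusted p-values of 0.702 and 0.988. The first was -0.46 without SMAD3 deletion replicate 4.

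In set B, UHRF1 stood at 24.3, 30.1, 23.8 and 7.71 CPM in LDAH deletion libraries, at 26.1, 2.96, 24.1 and 15.6 CPM in HPRT-targeted libraries, and between 7.43 and 31.3 CPM, with a median of 26.6 CPM, in negative control libraries. The lowest library of each group stands apart, and all groups overlapped. The log2 fold changes were 0.05 ± 0.49 in the LDAH deletion and -0.27 ± 0.50 in HPRT-targeted libraries, with intervals from -0.99 to 1.09 and from -1.33 to 0.78. Over both sets HPRT-targeted libraries had -0.40 ± 0.30, or -0.22 without HPRT-targeted replicate 2 of set B, the library at 2.96 CPM.

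**Figure D2:**
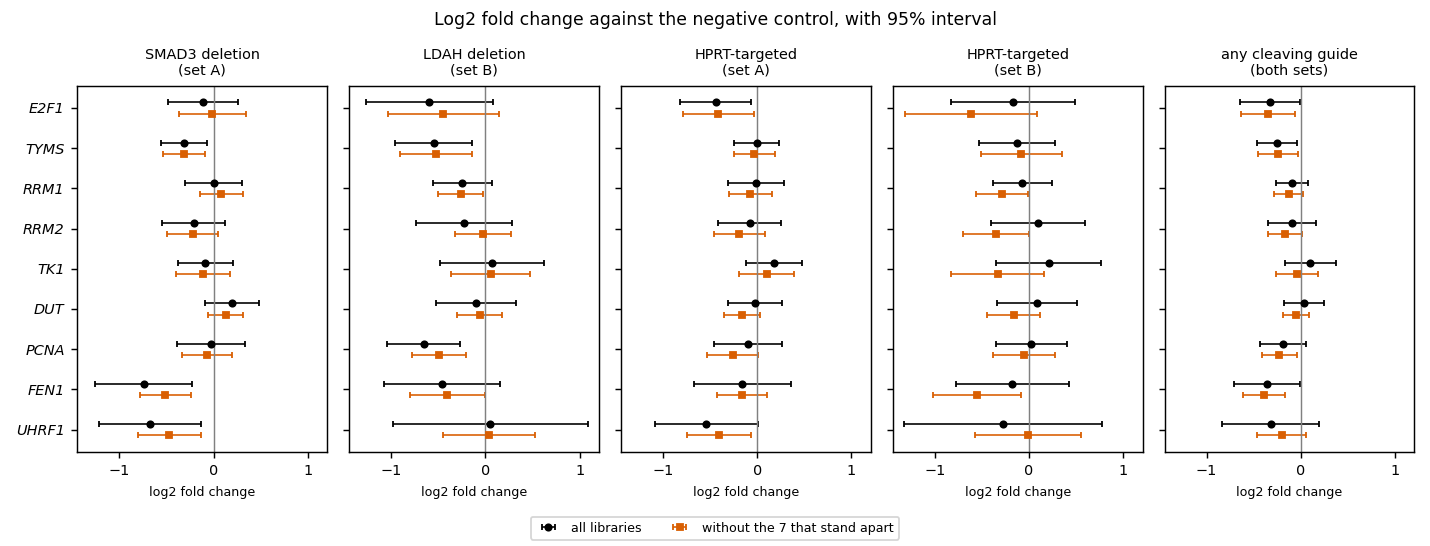
Log2 fold changes of the 9 genes against negative control libraries with 95% intervals, from edgeR, for the SMAD3 deletion, the LDAH deletion, HPRT-targeted libraries of each set and all libraries given a cleaving guide. Black points use all libraries and orange squares leave out the 7 that stand apart. Most points lie at or below 0, and the widest intervals are those of UHRF1 and E2F1 in set B.

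All 16 libraries given a cleaving guide were then set against the 11 negative control libraries, with the set as a covariate. This fit takes a common effect for the SMAD3, LDAH and HPRT guides. Each value is thus an average over them and does not show a change that all of them share. E2F1 had a log2 fold change of -0.33 ± 0.16, FEN1 -0.36 ± 0.17 and TYMS -0.25 ± 0.11, with edgeR p-values of 0.046, 0.0458 and 0.0228. All 9 adjusted edgeR p-values were 0.994. PCNA had -0.19 ± 0.12, UHRF1 -0.32 ± 0.25, RRM1 -0.09 ± 0.08 and RRM2 -0.09 ± 0.13, while TK1 had 0.10 ± 0.13 and DUT 0.03 ± 0.10. Thus 7 of 9 were below 0 against 51.4% of all genes, the median was -0.19 against -0.01, and 3 of 9 had an unadjusted p under 0.05 against 2.07% of all genes with lower values. Against HPRT-targeted libraries of the same set, the SMAD3 and LDAH deletions had -0.31 and -0.42 for TYMS and -0.58 and -0.28 for FEN1. For E2F1 they had 0.32 and -0.42, and none of these passed the adjusted threshold. Over all cleaving guides the intervals of RRM1, RRM2, TK1 and DUT ran from -0.26 to 0.07, -0.35 to 0.16, -0.17 to 0.37 and -0.18 to 0.25. They are for the average over guides and do not bound the change in a single group. The only gene called over all 12055 (0.0083%) was MDM2, whose product degrades p53, with 0.57 ± 0.10 and an edgeR adjusted p of 0.0221, named after its value was seen.

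With the 7 libraries that stand apart left out, TK1 and DUT turned to -0.04 ± 0.11 and -0.05 ± 0.07, so all 9 genes were below 0, against 48.8% of all genes, in 11 cleaving-guide against 9 negative control libraries. FEN1 then had -0.39 ± 0.11, with an edgeR p of 0.00119 and an adjusted p of 0.257. E2F1, TYMS, PCNA and FEN1 had an unadjusted p under 0.05, 4 of 9 against 4.41% of all genes with lower values.

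Against HPRT-targeted libraries, which also received a cleaving guide, the SMAD3 deletion had 5 of 9 genes below 0, against 47.4% of all genes. TYMS and FEN1 had an unadjusted edgeR p under 0.05 and were lower, as did 2.88% of all genes, and TYMS, TK1 and FEN1 lay wholly below the HPRT-targeted libraries, as did 1.94%. E2F1 was on the other side of 0 there, at 0.32 ± 0.18 with an adjusted edgeR p of 0.87. The LDAH deletion had 8 of 9 below 0 against HPRT-targeted libraries, with 48.3% of all genes, and 2 of 9, with 49.4%, once the libraries that stand apart were left out. E2F1 had -0.42 ± 0.35 there, -0.17 without HPRT-targeted replicate 4 and 0.17 ± 0.36 without the libraries that stand apart. PCNA alone was lower with an unadjusted p under 0.05, as were 2.87% of all genes, and alone lay wholly below, as did 1.22%. In both comparisons edgeR passed 0% of genes, with 669 and 497 at an unadjusted p under 0.05, and DESeq2 called 17 and 0.

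The libraries that stand apart moved these genes in different directions. UHRF1 was at 9.33 to 14.8 CPM in the 2 such libraries of set A and 2.96 to 15.6 CPM in the 5 of set B, against 19.1 to 36.3 CPM and 13.3 to 31.3 CPM in the others. DUT was at 153 to 157 CPM and 203 to 265 CPM in them, against 104 to 141 CPM and 141 to 180.2 CPM in the others. Among these genes, DUT separated the 7 libraries without overlap in both sets, and UHRF1 did so in set A. The 7 were picked by expression across all genes, and the share of all genes that separated them was not counted. Nothing particular to DUT or UHRF1 can therefore be read from this. TK1 in set B, at 38.7 to 71.6 CPM against 26.98 to 48.5 CPM, and FEN1, at 24.3 to 64.9 CPM against 36.5 to 79.5 CPM, overlapped, as did E2F1, TYMS, RRM1, RRM2 and PCNA in both sets. What sets these libraries apart was not tested.

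**Figure D3:**
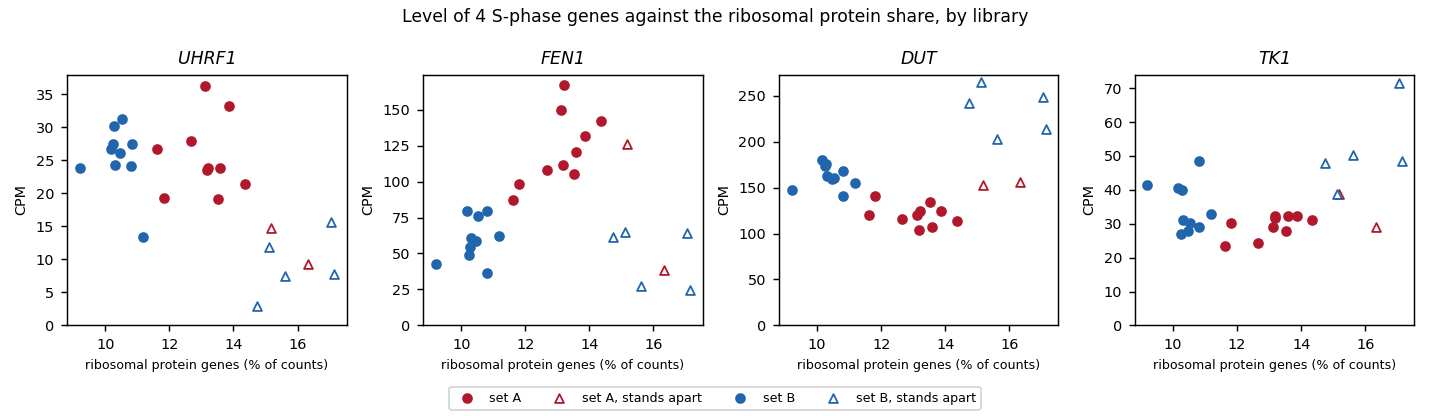
Level of UHRF1, FEN1, DUT and TK1 in CPM (vertical axes) against the percent of a library's counts in ribosomal protein genes (horizontal axes), 1 point per library. Open triangles are the 7 libraries that stand apart, at 14.7% or more, where UHRF1 is at most 15.6 CPM and DUT at least 153 CPM. Other libraries of set B also reach these levels, with UHRF1 down to 13.3 CPM and DUT up to 180.2 CPM.

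The level of some of these genes also differed between the control groups of the sets. In negative control libraries, FEN1 averaged 62.6 ± 19.1 CPM in set B (SD, n = 7) and 139 ± 25.3 CPM in set A (n = 4), a difference in log2 CPM of -1.21. DUT averaged 187 ± 38.0 CPM in set B and 121 ± 4.30 CPM in set A, a difference of 0.60. Neither gene overlapped between the control groups, as was so for 6.69% of all genes lower and 5.21% higher in set B. The other 7 genes overlapped, E2F1 at 14.8 ± 4.54 CPM in set B and 14.6 ± 2.21 CPM in set A. Set and handling cannot be told apart, so levels are compared with controls of the same set only.

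Across libraries most of these genes varied together, but which pairs did so most depended on the libraries used. With log2 CPM centred within each set, Pearson's r over all 27 libraries was above 0 in 30 of the 36 pairs, with a median of 0.32. Over the 20 libraries that do not stand apart, a choice made after seeing the data, it was above 0 in 34 pairs, with a median of 0.31, against a median of -0.00 over all pairs of genes with a mean of at least 10 CPM. The share of all gene pairs above 0 was not counted, and no median over all gene pairs was taken in the 27 libraries. How far the counts of 30 and 34 exceed the general level is therefore not known. The points of a pair share their library, its depth and its scaling, and groups were not separated, so these values are descriptions.

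FEN1 with RRM1 was the highest pair over all 27 libraries, at 0.78, and had 0.67 in the 20. TK1 with RRM2 had 0.76 in the 27 and 0.70 in the 20, FEN1 with E2F1 0.68 and 0.63, PCNA with TYMS 0.68 and 0.66, and RRM1 with E2F1 0.66 and 0.65. These 5 pairs were thus close in both. E2F1 with DUT, the highest pair in the 20 libraries at 0.80, had 0.31 in the 27, and FEN1 with RRM2, at 0.69 in the 20, had 0.33. DUT with UHRF1 was the lowest pair in the 27, at -0.68, and had 0.06 in the 20. The median r of a gene with the other 8 was highest for RRM2 in the 27 libraries, at 0.52, with E2F1 at 0.42, and highest for E2F1 in the 20, at 0.56, with RRM2 at 0.44. UHRF1 had the lowest median in both, at -0.17 and 0.06.

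**Figure D4:**
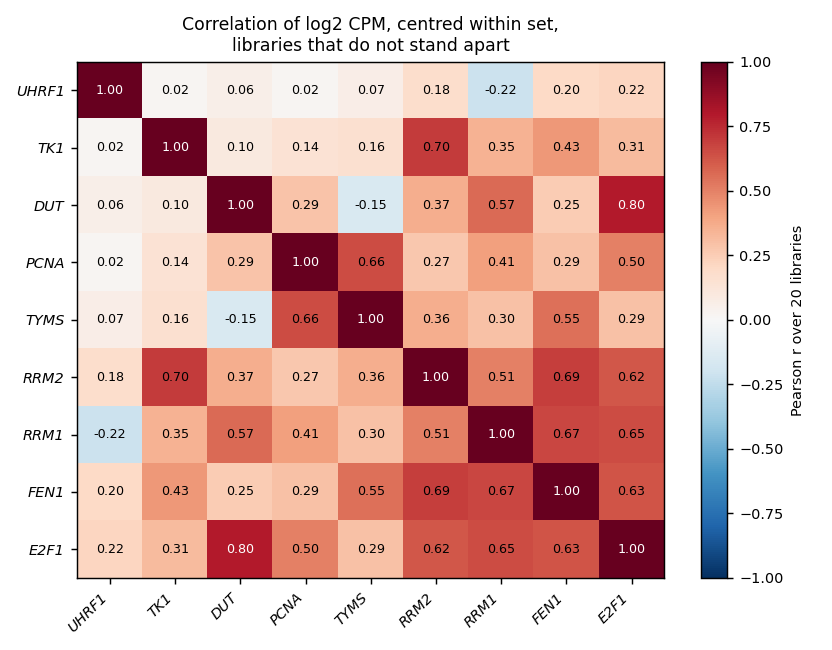
Pearson correlation of log2 CPM, centred within each set, for each pair of the 9 genes over the 20 libraries that do not stand apart. Genes are ordered by their median correlation with the others, from UHRF1 at 0.06 to E2F1 at 0.56.

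Over all 27 libraries, the genes outside the 9 whose levels followed E2F1 most closely among 8458 compared were PTGER4 (r = 0.76), which encodes a prostaglandin receptor, TCF19 (0.74), TREX1 (0.70), a DNA exonuclease gene, FST (0.69), which encodes follistatin, NCAPG (0.68), a condensin subunit gene, and DNAJC9 (0.68). In the 20 libraries that do not stand apart these values were 0.55, 0.58, 0.53, 0.52, 0.49 and 0.64. The mean of the 9 genes was followed most closely by TRIP13 (0.77) and PTTG1 (0.77), genes of mitotic checkpoint and securin function, DKK1 (0.77), which encodes a Wnt antagonist, CDCA5 (0.75), the sororin gene, COA4 (0.75) and CACYBP (0.75). In the 20 libraries they had 0.82, 0.75, 0.57, 0.64, 0.77 and 0.59. These are the highest of many values and carry no test.

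Other genes of the pathway were taken as 5 lists and read in the comparison of all cleaving guides with negative control libraries, where 51.4% of all genes were below 0 and none of the listed genes passed the adjusted threshold. Of 17 genes in the list of the E2F, DP and pocket protein family besides E2F1, 13 were below 0, with a median log2 fold change of -0.07. The list also holds LIN9, LIN37, LIN52, LIN54 and MYBL2, which are not E2F, DP or pocket protein genes. E2F4, a mostly repressive E2F, had -0.31 ± 0.12. E2F5, its relative, had -0.90 ± 0.39 at 1.99 ± 1.13 CPM against 3.62 ± 2.24 CPM, a low level. By group, E2F5 had 0.29 in the SMAD3 deletion and -0.31 in HPRT-targeted libraries of set A. In set B it had -1.81 in the LDAH deletion and -1.25 in HPRT-targeted libraries. TFDP1, the DNA-binding partner of E2F proteins, had -0.18 ± 0.12, and E2F2 had -0.74 ± 0.53. In the LDAH deletion TFDP1 had -0.55 ± 0.23 with an edgeR adjusted p of 1.00 over all libraries, and it passed the threshold only with the libraries that stand apart left out (n = 3 and 5), at -0.67 ± 0.16 with an edgeR adjusted p of 0.0306.

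Of 16 tested genes among 19 listed G1/S cyclins, kinases and inhibitors, 8 were above and 8 below 0. CDKN1A, whose product p21 inhibits cyclin-dependent kinases, averaged 476 ± 96.9 CPM in libraries given a cleaving guide (SD, n = 16) and 335 ± 86.8 CPM in negative control libraries (n = 11), which gave 0.50 ± 0.13 on the log2 scale, an edgeR p of 0.000463 and an adjusted p of 0.931. Its log2 fold changes were 0.45 ± 0.19 in the SMAD3 deletion, 0.54 ± 0.22 in the LDAH deletion, 0.60 ± 0.19 in HPRT-targeted libraries of set A and 0.44 ± 0.23 in those of set B. CCNE2, the cyclin E2 gene and a known E2F target, had -0.30 ± 0.19, CCNA2, cyclin A2, had -0.20 ± 0.12, and CDK6, a kinase that acts on RB, had 0.19 ± 0.09. In the LDAH deletion CCNE2 had -0.95 ± 0.29 with an edgeR adjusted p of 0.844 over all libraries, and -1.01 ± 0.25 with an adjusted p of 0.0357 with the libraries that stand apart left out. Its effect in the SMAD3 deletion minus that in the LDAH deletion was 1.31 ± 0.40 with an edgeR adjusted p of 0.934 over all libraries, and 1.51 ± 0.34 with an adjusted p of 0.0327 without those.

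Of 24 genes in the list of other nucleotide synthesis genes, 13 were above and 11 below 0, with a median of 0.02. The list also holds SAMHD1, TYMP and DCTPP1, whose products break down nucleotides or nucleosides. DCTD, the deaminase that makes dUMP for TYMS, had -0.30 ± 0.13, and SHMT1, which feeds the folate cycle of TYMS, had -0.52 ± 0.22. By group, DCTD had 0.05 in the SMAD3 deletion and 0.03 in HPRT-targeted libraries of set A. In set B it had -0.67 in the LDAH deletion and -0.41 in HPRT-targeted libraries. RRM2B, the p53-inducible alternative to RRM2, had 0.27 ± 0.12, against -0.09 ± 0.13 for RRM2 itself, and NME1, a nucleoside diphosphate kinase gene, had 0.19 ± 0.11. The split was 5 above and 19 below in the 20 libraries that do not stand apart.

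Of 34 replication fork genes, 29 were below 0, with a median of -0.10. TIMELESS of the fork protection complex had -0.27 ± 0.11, POLE, the catalytic subunit of polymerase epsilon, -0.57 ± 0.27, GINS3 of the helicase complex -0.25 ± 0.12, and POLE4, a small subunit of polymerase epsilon, 0.29 ± 0.15. All 12 genes of chromatin replication and DNA methylation were below 0, with a median of -0.22. ASF1B, a histone chaperone gene, had -0.43 ± 0.14, SLBP, which binds histone messenger RNA, -0.28 ± 0.11, USP1, a deubiquitinase gene of PCNA, -0.24 ± 0.11, and HAT1, a histone acetyltransferase gene, -0.12 ± 0.09. Their edgeR adjusted p-values were all 0.994. In the 20 libraries that do not stand apart, 30 of the 34 fork genes and 11 of the 12 chromatin genes were below 0.

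**Figure D5:**
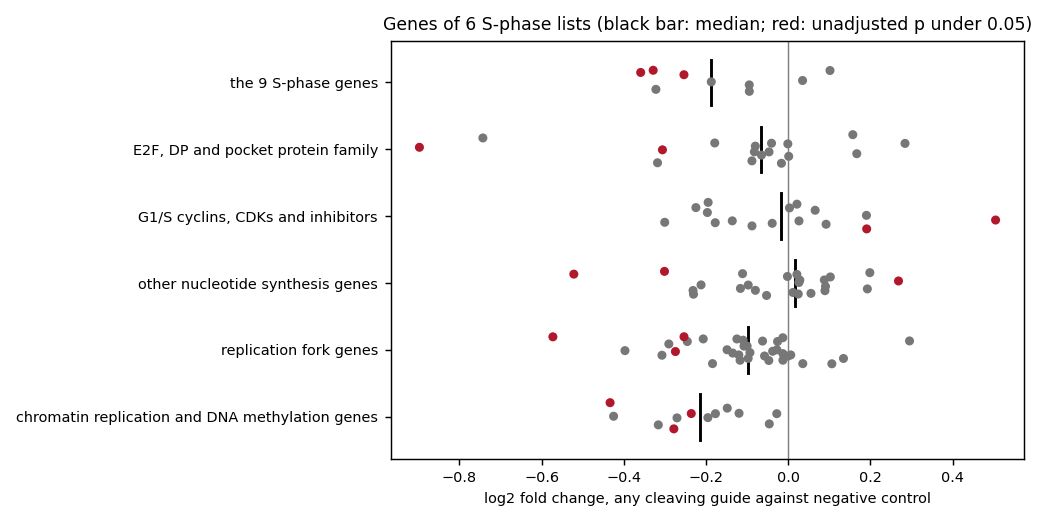
Log2 fold changes of all libraries given a cleaving guide against negative control libraries for the 9 genes and the genes of 5 related lists, 1 point per gene, with the list median as a black bar and genes with an unadjusted edgeR p under 0.05 in red. The medians lie between -0.22 for chromatin replication genes and 0.02 for the list named other nucleotide synthesis genes, with the 9 genes at -0.19.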

How the data were processed

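The authors deposited a table of whole-number read counts per gene from QuantSeq 3' tag libraries, 1 column per library, with every column used (0 columns not used). Per the submitters' processing notes the build was hg38 and edgeR 3.24.3 was used. No source used here gives the aligner, the counting program or its strand setting. Libraries were grouped by their labels, although the titles of the deletion libraries name no series. The numbers in those titles lie in ranges of their own, apart from those of the controls, and their meaning is not stated. The 9 genes and the gene lists were chosen with earlier results of these data known.

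Counts were filtered with filterByExpr and tested in R 4.3.3 with edgeR 4.0.16 (TMM scaling, two-sided quasi-likelihood test), and p-values were adjusted by Benjamini-Hochberg across every gene tested, with a threshold of 0.05. Comparisons within a set were fitted on that set's 3 groups, and those over both sets had the set as a covariate. The SE is the log2 fold change divided by the root of its F statistic, and intervals are 95%. Levels are CPM scaled by TMM factors over all 27 libraries, and a count of 3 corresponded to 0.387 to 0.875 CPM before scaling. Correlations used log2 CPM (prior count 2) minus the set mean, for genes with a mean of at least 10 CPM. Libraries standing apart had a median correlation with their set more than 3 scaled median absolute deviations below the set's median. That alternative was chosen after seeing the data.

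Named with values were the 9 genes, the 4 genes of each list with the smallest p over all cleaving guides, and the 6 genes most alike in pattern. Alternatives were DESeq2 1.42.0, limma 3.58.1 with voom and library quality weights, edgeR with size factors from DESeq2, other filters, other samples in the fit, and leaving out each library. The code was checked on simulated data. Libraries of a group differed by more than counting error (chi-square per degree of freedom 3.03 to 78.9), so none was a copy.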

Additional observations from a re-analysis of the deposited data

Results flagged for a closer look

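FEN1 in HPRT-targeted replicate 3 of set B was at 36.5 CPM, while the other 3 libraries of its group lay between 58.9 and 64.4 CPM. In log2 CPM, the scale of this check, the gap was 0.843 of the group's range against a critical value of 0.829. It was the only such library among 54 groups of levels tested, which is fewer than the rate of about 1 in 20 that chance gives. This library is not among the 7 that stand apart.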

How the results depend on the processing

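None of the 9 genes passed the adjusted threshold in any of 648 values from other tests, scalings, filters or sample choices or in 1242 from leaving out a library, of which 44 and 89 had the other sign from the reported value. The number of all genes called depended on the method. DESeq2 called 14 in the SMAD3 deletion and 14 in the LDAH deletion (edgeR 0), 1 for HPRT in set A, 1 over both sets, 3 for any cleaving guide (edgeR 1), 17 for SMAD3 deletion against HPRT targeting, 2 for the difference of HPRT effects and 4 for that of the deletions. Voom with quality weights called 2, 6, 11, 5 and 1 in the SMAD3 deletion, HPRT over both sets, any cleaving guide, SMAD3 deletion against HPRT targeting and the difference of the deletions. Leaving out the 7 libraries that stand apart (2 in set A, 5 in set B) gave 1, 212, 1, 1 and 0 in the SMAD3 deletion, the LDAH deletion, HPRT in set A, HPRT over both sets and any cleaving guide. It gave 55 and 77 for the deletions against HPRT targeting in sets A and B, and 1 and 68 for the differences of HPRT and of deletion effects. The LDAH deletion gave 9 with all 27 libraries in the fit. Leaving out 1 library gave 0 to 3 in the LDAH deletion, 0 to 1 for any cleaving guide, 0 to 2 for SMAD3 deletion against HPRT targeting, 0 to 1 for the difference of HPRT effects and 0 to 4 for that of the deletions. Of the 9 genes, 5 to 8 were below 0 for HPRT in set A when 1 library was left out, 4 to 9 in set B (9 without the 7 libraries, 8 with voom), and 7 to 9 for LDAH deletion against HPRT targeting (2 and 2). The largest reported values whose sign turned were 0.42 in size under the other settings and 0.32 when 1 library was left out. Without the 7 libraries and with voom, RRM2 and TK1 for HPRT in set B were -0.35 and -0.21, and -0.33 and -0.15, RRM2 over both sets -0.27 and -0.17, DUT for any cleaving guide -0.051 and -0.036, E2F1 in LDAH deletion against HPRT targeting 0.17 and 0.076 (reported value -0.42), and E2F1 in the difference of HPRT effects 0.21 and 0.10. TK1 for any cleaving guide was -0.041 without the 7 libraries, and E2F1 in the SMAD3 deletion 0.016 with voom. Leaving out 1 library gave E2F1 in the SMAD3 deletion -0.19 to 0.0015, RRM2 and TK1 for HPRT in set B -0.23 to 0.26 and -0.13 to 0.37, RRM2 over both sets -0.16 to 0.092, and DUT for any cleaving guide -0.0047 to 0.10. The causes were not tested. No paired analysis was possible because the replicate numbers follow accession order and no label states a pairing. HPRT-targeted and negative control libraries of set A alternate in the numbering of their titles, whose meaning is not stated. E2F1 had as few as 21 counts and UHRF1 as few as 16 in a library, which limits their precision more than that of RRM1, with at least 581.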
